A study of Mus musculus with 40 samples.

Results

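Regulatory T cells of thymic origin (tTregs) were compared with conventional CD4+ T cells (Tconvs) after both had been activated through CD3 and CD28. The comparison held 3 activated tTreg and 3 activated Tconv libraries, picked by their labels alone from the 24 RNA-seq libraries of a series of 40 samples that also covers chromatin accessibility and factor binding. The study set tTregs beside Tconvs and induced Tregs (iTregs) to ask how their responses to the T cell receptor (TCR) differ, and the comparison gives how far the transcripts of tTregs and Tconvs lay apart once activated. Resting tTregs and resting Tconvs, with 3 libraries each, served to tell differences that were already there from differences that came with activation. The 3 libraries of resting iTregs entered only the shared estimate of the spread and the filter that set which genes were tested.

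By the methods of the study, these cells came from spleens of mice on a C57BL/6 background, Foxp3-GFP reporter mice for Tconvs and tTregs. The methods give iTregs as Foxp3-RFP+ or Foxp3-GFP+ cells, so the reporter behind the iTreg libraries is not certain. The mice were 2 to 4 months old for Tconvs and tTregs and 6 weeks old for iTregs, which were induced from naive T cells with anti-CD3, anti-CD28, TGF-β and IL-2. The Foxp3-GFP reporter places GFP after the *Foxp3* coding sequence. Because tTregs (labelled nTreg) were sorted as CD4+ Foxp3-GFP+ cells, *Foxp3* itself and genes that go with it were set by the gate. Such a gate on spleen also takes Foxp3+ cells that arose outside the thymus, and thymic origin is a label here. The sources used here do not spell out the gate for Tconvs, the length of the activation, or whether the 3 libraries of a group came from separate mice or cultures. P-values therefore measure the spread between these libraries, which may be technical. In bulk RNA, fewer cells of a kind and less RNA per cell cannot be told apart.

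Foxp3, the transcription factor that defines Tregs, works with Ikzf2, Ikzf4 and others to keep up surface molecules such as the IL-2 receptor, CTLA-4 and integrins that activate TGF-β, and to keep inflammatory cytokine genes silent. Engagement of CD3 and CD28 normally leads to calcium entry through STIM and ORAI proteins, to calcineurin and NFAT, and by other branches to AP-1 and NF-κB. In Tconvs these factors switch on cytokine genes, the factors of helper lineages, ribosome production and DNA replication. Interferon-γ made by activated T cells acts back on them through its receptor and factors such as IRF1, which raise the guanylate-binding proteins, the immunity-related GTPases and the immunoproteasome.

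The promoters of 5 genes that the results turn on are shown first, since the motifs of these pathways are referred to below. They run from 250 bases before to 50 bases after the RefSeq start, are taken from RefSeq on GRCm38.p6, and are printed 5′ to 3′ on the gene's strand. Capitals mark the NFAT core TGGAAA (read as TTTCCA on the other strand) and the AP-1 motif TGANTCA in every promoter, and the interferon element GAAANNGAA (on either strand) in the last 2. *Il2* is the classical NFAT target of T cells. *Cybrd1* and *Pdlim4* had the largest log2 fold change, up and down, of the genes named by size whose promoters held any of the study's motifs. *Ifit3b* and *Irgm1* are interferon-stimulated genes, chosen after their values had been seen.
Il2, chr3:37125905-37126204, minus strand, NFAT core starting 47 bases before the start: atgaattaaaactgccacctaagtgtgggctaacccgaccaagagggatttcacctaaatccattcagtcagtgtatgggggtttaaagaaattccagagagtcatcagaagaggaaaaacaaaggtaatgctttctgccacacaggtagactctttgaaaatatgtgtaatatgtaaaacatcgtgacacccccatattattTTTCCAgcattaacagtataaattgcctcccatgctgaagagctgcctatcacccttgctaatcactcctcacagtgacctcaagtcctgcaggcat
Cybrd1, chr2:71117804-71118103, plus strand, AP-1 motif starting 235 bases before the start: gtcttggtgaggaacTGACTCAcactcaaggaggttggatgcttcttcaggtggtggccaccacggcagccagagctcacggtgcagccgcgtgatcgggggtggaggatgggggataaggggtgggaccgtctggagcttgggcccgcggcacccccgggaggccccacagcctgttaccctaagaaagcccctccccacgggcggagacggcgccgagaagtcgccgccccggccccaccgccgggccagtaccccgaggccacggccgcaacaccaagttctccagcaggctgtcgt
Pdlim4, chr11:54068968-54069267, minus strand, NFAT core starting 229 bases before the start: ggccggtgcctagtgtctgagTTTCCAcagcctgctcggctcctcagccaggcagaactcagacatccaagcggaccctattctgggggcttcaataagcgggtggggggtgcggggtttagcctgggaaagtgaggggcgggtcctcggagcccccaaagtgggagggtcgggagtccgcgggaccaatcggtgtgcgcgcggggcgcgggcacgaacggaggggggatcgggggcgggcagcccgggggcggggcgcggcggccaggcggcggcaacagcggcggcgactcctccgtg
Ifit3b, chr19:34607707-34608006, plus strand, interferon elements starting 187, 153 and 134 bases and AP-1 motif starting 88 bases before the start: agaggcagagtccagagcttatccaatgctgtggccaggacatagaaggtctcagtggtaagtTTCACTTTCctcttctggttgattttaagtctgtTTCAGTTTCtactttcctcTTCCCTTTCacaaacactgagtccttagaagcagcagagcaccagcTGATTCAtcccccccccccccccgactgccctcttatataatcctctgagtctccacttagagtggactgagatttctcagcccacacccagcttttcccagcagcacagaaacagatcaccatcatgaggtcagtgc
Irgm1, chr11:48871371-48871670, minus strand, AP-1 motif starting 115 bases and overlapping interferon elements starting 30 and 24 bases before the start: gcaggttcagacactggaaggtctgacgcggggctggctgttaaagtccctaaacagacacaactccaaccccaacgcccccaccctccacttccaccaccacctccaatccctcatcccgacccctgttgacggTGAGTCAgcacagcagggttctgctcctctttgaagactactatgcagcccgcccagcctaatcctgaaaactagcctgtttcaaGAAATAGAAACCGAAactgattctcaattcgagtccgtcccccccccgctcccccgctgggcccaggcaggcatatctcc

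The values are normalized counts, that is reads on a gene divided by one size factor per library. Activated tTreg libraries held between 5256800 and 9893053 reads on genes and activated Tconv libraries between 12035775 and 15685234, so that a floor of 3 reads was worth from 2.12 to 5.45 normalized counts. The shares of reads differed between the groups as well: mitochondrial genes took 1.13 to 1.72% of the reads in activated tTregs and 3.07 to 3.32% in activated Tconvs, ribosomal protein genes took 12.4 to 13.0% and 16.2 to 17.7%, and the 50 most abundant genes took 17.3 to 17.4% and 21.9 to 22.4%. The libraries of activated tTregs spread more, by a median SD of 0.22 log2 units per gene against 0.11 in activated Tconvs. With the reads thinned to the depth of the shallowest library, 4953 genes were called, 2615 higher and 2338 lower. The part of cell number and RNA quality in the results was not tested.

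Of the 11495 genes tested, 5535 (48.2%) differed between activated tTregs and activated Tconvs. A gene was called when its adjusted p (limma, Benjamini-Hochberg) was below 0.05 and its log2 fold change lay beyond 0.5 in either direction. Those higher in activated tTregs numbered 2942 (25.6%) and those lower 2593 (22.6%), a split that became 2566 against 2990 under TMM scaling. The 3 libraries of one cell type lay wholly above or below those of the other for 64.7% of all genes (34.3% with tTregs above, 30.4% with tTregs below). Between resting cells 38.6% of genes differed, and 20.5% were higher in tTregs and 18.2% lower. The interaction of cell type and activation, which tests whether the difference changed with activation, was called for 34.7%, higher for 17.7% and lower for 17.0%. On activation itself, 50.2% of genes changed in Tconvs and 21.9% in tTregs: 24.5% rose and 25.7% fell in Tconvs, and 11.9% rose and 10.0% fell in tTregs. Every count of a gene list below is to be read against these shares. Differences could be large: 246 genes were higher and 112 lower by more than 3 log2 units, and the median log2 fold change over all genes was 0.04.

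All 25 genes of Treg identity that were listed were higher in activated tTregs, with a median log2 fold change of 3.19. *Foxp3* (chrX:7573644-7595245, GRCm38) stood at 7171, 6815 and 7951 normalized counts in the 3 activated tTreg libraries and at 35.9, 34.5 and 31.1 in the 3 activated Tconv libraries. The groups were far apart and tight within themselves. Its log2 fold change was 7.71 ± 0.09 (SE; adjusted p = 9.97e-17, limma), and 31.5% of its exon bases are shared with overlapping genes, which counting without strand cannot separate. Values in brackets after a gene, here and below, are log2 fold changes between activated cells unless rest is named. *Ikzf2*, which encodes the Foxp3 partner Helios, was at 5610.1, 7313 and 7226 against 146, 119.9 and 146 normalized counts (5.59 ± 0.13, adjusted p = 1.69e-13). Large differences were also seen in the integrin genes *Itgae* (6.84) and *Itgb8* (6.49), in *Lrrc32* (5.95), which encodes the GARP protein that holds latent TGF-β on the Treg surface, and in *Nt5e* (5.04), whose product CD73 makes adenosine.

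The gap in Treg identity genes was narrower after activation than at rest, where its median was 4.57. The interaction was called lower for 16 of the 25 genes and higher for 3, and 17 of them rose on activation in Tconvs against 4 in tTregs. *Il2ra*, the high-affinity chain of the IL-2 receptor, had the largest interaction of the list. Activated tTregs held 6001, 7299 and 6169 normalized counts of it and activated Tconvs 4315, 4290.0 and 4447, both sets without overlap but close together. The log2 fold change was 0.57 ± 0.10 (adjusted p = 1.79e-04), a call lost under TMM scaling and without the second tTreg library (0.48 in both), against 7.37 between resting cells, and the interaction was -6.80 ± 0.14 (adjusted p = 8.55e-14). *Tnfrsf4* (1.0 after and 4.74 before activation), *Tnfrsf9* (2.87 and 7.92), *Gpr83* (3.47 and 7.71) and *Ctla4* (1.60 and 3.70) moved the same way. The 3 genes whose gap widened were *Itgae*, *Nrp1* and *Nt5e*, each of which fell on activation in Tconvs (by 1.32, 1.55 and 2.55 log2 units).

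**Figure D1:**
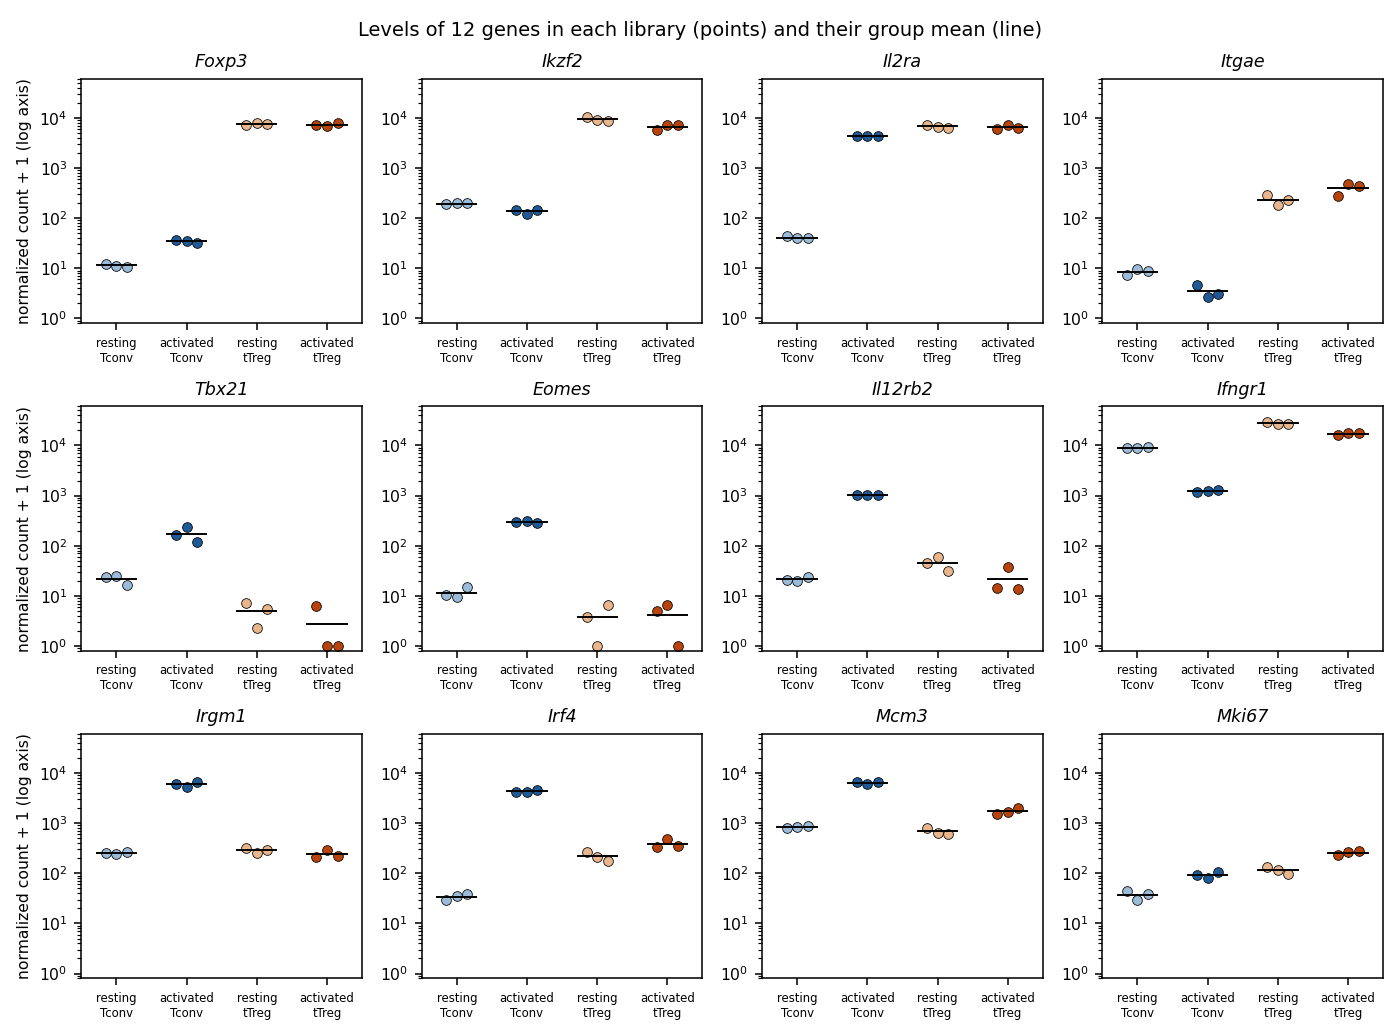
Normalized count plus 1 (log axis) of 12 genes in each of the 3 libraries (points) of resting and activated Tconvs and tTregs, with a line at the group mean. *Foxp3*, *Ikzf2* and *Itgae* stay apart in both states, *Il2ra* closes its gap after activation, and *Tbx21*, *Eomes*, *Il12rb2*, *Irgm1* and *Irf4* stand highest in activated Tconvs.

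Genes of effector and tissue Tregs were mostly higher too, 22 of the 31 tested, with 2 lower and 7 not called and a median of 1.54. *Klrg1*, a receptor of terminally differentiated lymphocytes, was at 215, 293 and 242 normalized counts in activated tTregs and at 7.18, 7.76 and 0.708 in activated Tconvs (5.65 ± 0.47, adjusted p = 1.12e-07). *Il1rl1*, the IL-33 receptor of tissue Tregs, was at 183, 173 and 236 against 5.39, 4.31 and 0.708 (5.67 ± 0.42, adjusted p = 4.01e-08), and *Fgl2*, a secreted suppressive protein, at 221, 207 and 139.9 against 2.69, 0.862 and 5.66 (5.71 ± 0.40, adjusted p = 1.85e-08). Activated Tconvs held under 10 normalized counts of each of these 3 genes in every library. The TNF receptor *Tnfrsf8* (3.88) and the chemokine receptors *Ccr6* (4.44) and *Ccr8* (2.18) followed, and *Rora* (2.52) differed after activation but was not called at rest (0.27). The 2 lower genes were *Lag3* (-2.08), an inhibitory receptor, and *Cd44* (-0.98), the hyaluronan receptor that marks antigen-experienced T cells. *Gzmb* was not called (0.30, adjusted p = 0.219), but was called higher with the length and GC trend described below removed (0.72).

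Outside these lists, the largest differences in favour of tTregs were in genes with few or no reads in activated Tconvs. *Ltf*, which encodes the iron-binding protein lactoferrin, was at 291, 409 and 351 normalized counts in activated tTregs and at 0 in all 3 activated Tconv libraries, which puts it at least 142-fold higher with the floor of 3 reads per library. *Gad1*, which encodes a glutamate decarboxylase, was at 155, 205 and 145 and likewise at 0, at least 68.3-fold higher. *Rln3*, which encodes the peptide relaxin-3, stood at 909, 693 and 807 against 2.69, 2.59 and 3.54 (7.67 ± 0.29, adjusted p = 2.69e-11). These 3 genes also rose on activation within tTregs. *Cybrd1*, a ferric reductase whose promoter is shown above, was at 438, 573 and 499.5 against 0.898, 4.31 and 2.83 (7.21 ± 0.34, adjusted p = 2.85e-10). The laminin chains *Lama5* (6.76) and *Lamc1* (6.33), the matrix protein *Matn2* (6.82), the dynein heavy chain *Dnah7a* (7.09), *Hepacam2* (7.24), *Sh3bgrl2* (6.45), *Magi1* (6.42) and *Msrb3* (6.14) completed the 15 largest by log2 fold change.

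By the difference of means, the largest surplus in activated tTregs was that of *H2-D1* (68164, 45557 and 65943 against 39092, 38535 and 38967 normalized counts, 0.60 ± 0.14, adjusted p = 0.00233), a class I MHC gene of a multigene family whose reads are uncertain, and it was not called without the first activated tTreg library (0.50). *Vim*, which encodes the intermediate filament vimentin, followed with 22773, 14427 and 22016 against 1441, 1538 and 1477 (3.70 ± 0.15, adjusted p = 7.03e-11). Activated tTregs were above activated Tconvs in every library for both genes, and the second tTreg library was the lowest of the 3. The histone variant gene *H2afz* (1.79), *Ecm1* (3.70), *Akap13* (1.54), *Sqstm1* (1.34) and *Prkar1a* (0.99) were among the others. For *Akap13*, the difference was 0.67 once the trend with transcript length and GC content described below was removed.

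No helper cytokine gene was called higher in activated tTregs. Of 24 genes listed, 11 were tested, 7 of them lower and 4 not called. *Ifng* was at 0, 0.946 and 0 normalized counts in activated tTregs and at 37.7, 28.5 and 26.2 in activated Tconvs (-4.65 ± 0.71, adjusted p = 5.00e-05). *Il21* was at 0 in all activated tTreg libraries and at 29.6, 31.9 and 31.1 in activated Tconvs, at least 7.52-fold lower, and *Ccl3* was at 0 against 24.2, 13.8 and 22.6, at least 4.92-fold lower. The chemokine gene *Ccl4* (-4.53) and the inflammatory factor *Mif* (-1.25) were lower as well. *Lta*, which encodes lymphotoxin-α, reversed: it was at 603, 720.0 and 618 against 1518, 1786 and 1631 after activation (-1.35 ± 0.09, adjusted p = 1.25e-08) and was higher in tTregs at rest (2.66). *Tnf* overlapped, at 474, 468 and 503 against 576, 499 and 521 (-0.14 ± 0.15, adjusted p = 0.424). *Il2* did not reach the minimum for a test, with 5.39, 6.62 and 1.82 normalized counts in activated tTregs and 2.69, 3.45 and 3.54 in activated Tconvs, a few reads at most in every library.

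The transcription factors of the Th1 lineage stood out among those that were lower. *Tbx21* (chr11:97098071-97115331, GRCm38), which encodes T-bet, was at 5.39, 0 and 0 normalized counts in activated tTregs and at 159.8, 236 and 120.3 in activated Tconvs. The related *Eomes* was at 4.04, 5.68 and 0 against 295, 306 and 277. No activated tTreg library came near an activated Tconv library for either gene, and the highest tTreg value stood for 6 reads. The log2 fold changes were -6.49 ± 0.61 (adjusted p = 4.26e-07) and -6.51 ± 0.66 (adjusted p = 8.86e-07), with interactions of -4.26 and -4.55. Both genes rose in Tconvs on activation (by 2.97 and 4.70) and were not called in tTregs. *Il12rb2*, the signaling chain of the IL-12 receptor, was at 13.5, 36.9 and 12.7 against 1047, 1028 and 1035 (-5.73 ± 0.32, adjusted p = 1.87e-09), although it was higher in tTregs at rest (1.04), and 40.0% of its exon bases are shared with *Serbp1* on the opposite strand. *Serbp1* was not called (-0.47), but was called lower without the first activated tTreg library (-0.72) and with the length and GC trend removed (-1.15). Its partner chain *Il12rb1* was lower too (-2.10; 2.52 at rest).

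Of all 24 lineage factors tested, 11 were higher and 6 lower (median 0.37). *Ahr* (3.08), *Hopx* (3.61), *Id3* (2.24), *Bcl6* (2.20), *Maf* (1.83) and *Prdm1* (1.60) were higher in activated tTregs and *Id2* (-2.01), *Zeb2* (-1.57) and *Irf1* (-2.23) were lower. *Gata3* was moderately higher (0.87), and both *Rora* and *Maf* appear in the effector list as well.

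Interferon-stimulated genes were lower in activated tTregs as a group, 25 of the 37 tested, with 4 higher and 8 not called and a median of -1.18 against 0.04 at rest. For 22 of the 25 the interaction was called lower as well. *Irgm1*, an immunity-related GTPase whose promoter carries the overlapping pair of interferon elements shown above, was at 210.1, 290.4 and 225 normalized counts in activated tTregs against 6103, 5226 and 6655 in activated Tconvs (-4.63 ± 0.14, adjusted p = 3.77e-12) and was not called at rest (0.16). *Ifit3b*, with 3 elements, was at 1.35, 0 and 1.82 against 112, 115 and 139 (-6.03 ± 0.67, adjusted p = 2.22e-06), though reads of this gene and of its near-identical neighbour *Ifit3* (-4.49) are uncertain. The pattern extended to *Iigp1* (-4.82), *Ifit1* (-4.10), *Igtp* (-2.55), the immunoproteasome subunit *Psmb9* (-1.93) and the factor *Irf1* (-2.23).

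The receptor chains for interferon-γ differed in opposite directions. *Ifngr1* (chr10:19591949-19610229, GRCm38), the ligand-binding chain, was at 15845, 17641 and 18012 normalized counts in activated tTregs and at 1203, 1263 and 1294 in activated Tconvs, so the activated tTregs held 13.7 times the mean of the activated Tconvs. The log2 fold change was 3.77 ± 0.07 (adjusted p = 2.72e-14), up from 1.65 between resting cells, after falls of 2.83 log2 units in Tconvs and 0.71 in tTregs. *Ifngr2*, the second chain, was lower in activated tTregs (423, 178 and 193 against 611, 648 and 572, -1.32 ± 0.35, adjusted p = 0.00466). Of the inhibitors of the pathway, *Socs1* was lower (-1.49; 1.80 at rest).

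The guanylate-binding proteins, of which 10 were tested as a family picked after the values were seen, divided into 7 lower and 3 higher after activation, with a median of -2.16 against 1.99 at rest. *Gbp2* was at 4413, 6341 and 6319 normalized counts in activated tTregs and at 51598, 50946 and 55652 in activated Tconvs (-3.23 ± 0.12, adjusted p = 2.75e-11), whereas resting tTregs had held more of it than resting Tconvs (2.14). *Gbp10* gave the second largest interaction of the genes named by size (-7.97 ± 0.46, adjusted p = 7.22e-09), with 24.2, 33.1 and 38.1 against 2338, 1993 and 2474 after activation, and 46.3% of its exon bases are shared with the overlapping *Gm43302*. *Gbp2b* (5.11), *Gbp3* (1.23) and *Gbp7* (0.67; 0.41 and not called without the second activated tTreg library) were higher in activated tTregs, and *Ifih1* (1.38) and *Oas1a* (1.04), sensors of viral RNA, were the other listed genes that were higher.

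Across all 9239 tested genes whose promoter could be matched (80.4%), the interferon element was found in 9.36% of the promoters of genes lower in activated tTregs, 6.89% of those higher and 7.36% of all, both strands counted. Of 29 interferon-stimulated genes with a promoter, 17 held it, 11 of the 19 that were lower and 6 of the 10 that were not. The NFAT core lay in 18.8% of lower, 15.1% of higher and 16.4% of all promoters, the AP-1 motif in 4.33, 5.32 and 4.65% (5.96% of lower and 5.78% of higher promoters for genes beyond 1 log2 unit), the E box CACGTG bound by MYC in 11.6, 9.70 and 10.3%, and the E2F motif TTGGCGC in 5.94, 3.66 and 4.50%. An NFAT core within 20 bases of an AP-1 motif was found in 6 lower and 7 higher genes of 15 in all. These are matches of letters in one window and were not tested.

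**Figure D2:**
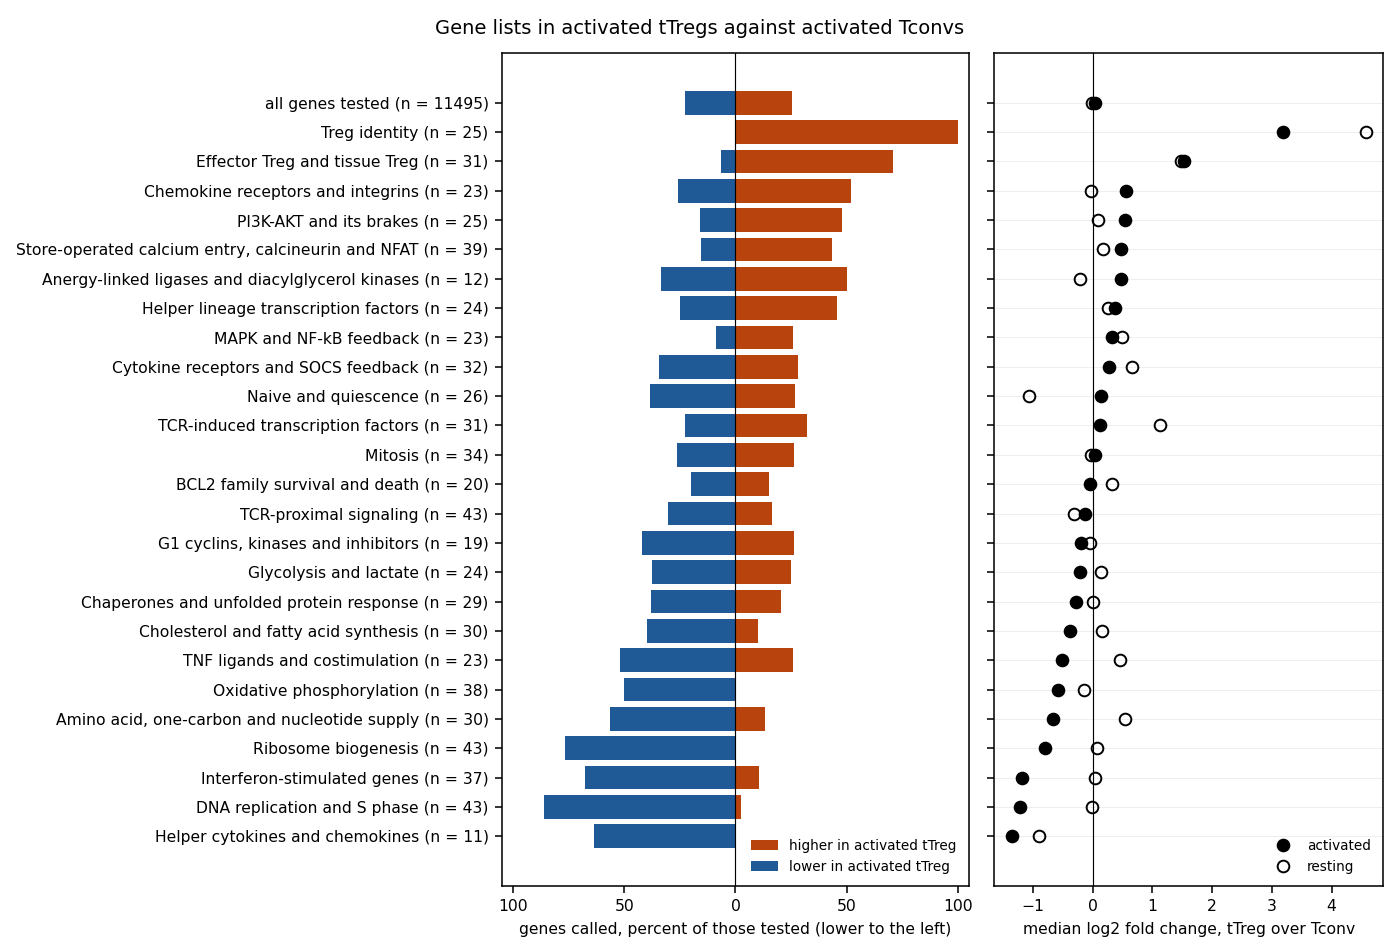
Left, percent of the tested genes of each list that were higher (right side) or lower (left side) in activated tTregs, with all 11495 genes at the top. The lists of cell type markers are left out. Right, median log2 fold change of each list between activated (filled) and between resting cells (open). Of the lists drawn, Treg identity genes lie furthest to the right and helper cytokines, DNA replication, interferon-stimulated and ribosome biogenesis genes furthest to the left, the last 3 of these with resting medians near 0.

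Transcription factors that TCR signals induce showed no common shift: 10 of the 31 tested were higher, 7 lower and 14 not called, with a median of 0.12 that turned without the first activated tTreg library (-0.11) and with the length and GC trend described below removed (-0.18). Between resting cells 19 had been higher in tTregs (median 1.12), and the interaction was called lower for 16. *Irf4*, which drives effector differentiation and metabolism, was at 335, 472 and 354 normalized counts in activated tTregs and at 4186, 4235 and 4507 in activated Tconvs (-3.49 ± 0.16, adjusted p = 2.29e-10), an order opposite to that at rest (2.64). *Irf8* (-3.40; 2.19 at rest) and *Atf3* (-3.56; 3.17 at rest) turned in the same way, and so did *Egr2* (-2.49; 0.98). *Batf3* was at 0 in all activated tTreg libraries and at 8.98, 9.49 and 18.4 in activated Tconvs, at least 2.99-fold lower. Higher in activated tTregs were *Rel* (3960.5, 3523 and 4434 against 825, 743 and 825, 2.31 ± 0.10, adjusted p = 9.75e-11), an NF-κB subunit needed for Tregs, *Nfil3* (2.61), *Crem* (2.23), *Fosl2* (2.15) and *Nr4a1* (2.14), a direct reporter of TCR signals. *Myc* was not called (4095, 2586 and 4009 against 3384, 3491 and 3539, 0.01 ± 0.15, adjusted p = 0.971), with the tTreg libraries on both sides of the Tconv ones.

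Ligands of the TNF family and costimulatory molecules were lower more often than higher (12 and 6 of 23, median -0.50). With the length and GC trend described below removed, the split was nearly even, 11 lower and 9 higher (median -0.32). *Cd69*, an early activation antigen that keeps cells in lymphoid tissue, was at 385, 415 and 436 against 2279, 2125 and 2356 normalized counts (-2.45 ± 0.13, adjusted p = 1.08e-09), after having been higher in resting tTregs (1.01). *Cd40lg*, which gives help to B cells, was at 22.9, 33.1 and 27.2 against 107, 117 and 120.3 (-2.02 ± 0.16, adjusted p = 5.42e-08), and *Cd274*, which encodes PD-L1, was lower (-2.19), as were *Tnfsf8* (-1.62), *Tnfsf11* (-2.26), *Tnfsf14* (-2.25) and *Fasl* (-2.62). The exceptions included the B7 genes *Cd80* (159, 181 and 236 against 8.08, 11.2 and 6.37, 4.35 ± 0.26, adjusted p = 4.19e-09) and *Cd86* (2.91), ligands of CD28 and CTLA-4 that antigen-presenting cells usually carry, and *Tnfsf9* (1.54).

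In the calcium branch, 17 of 39 genes of store-operated calcium entry, calcineurin and NFAT were higher in activated tTregs, 6 were lower and 16 were not called, with a median of 0.48. The endoplasmic reticulum calcium sensor *Stim1* was at 1240.3, 976 and 1152 against 678, 793 and 703 normalized counts (0.63 ± 0.12, adjusted p = 3.38e-04), although it was lower in tTregs at rest (-1.13). The channel *Orai1* was at 108, 96.5 and 119.9 against 125, 158 and 137 and was not called (-0.37 ± 0.18, adjusted p = 0.0839), while *Orai2* was higher (0.72; -1.54 at rest). Once the trend with length and GC content described below was removed, *Stim1* (0.29), *Orai2* (0.42), *Itpr2* (0.45) and *Itpr3* (0.13) no longer passed, and 11 genes were higher and 8 lower. Of the NFAT genes, *Nfatc2* was higher (0.87, or 0.23 and not called without the trend), and *Nfatc1* overlapped between the cells (738, 625 and 745 against 639, 662 and 635, 0.12 ± 0.08, adjusted p = 0.239).

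Calcineurin, the phosphatase that activates NFAT, differed subunit by subunit. The catalytic subunit *Ppp3ca* was at 263, 199 and 229 in activated tTregs against 93.4, 94 and 72.9 normalized counts (1.40 ± 0.16, adjusted p = 2.32e-06). *Ppp3cc*, another catalytic subunit, was at 112, 89.9 and 104 against 536, 459.7 and 555 (-2.34 ± 0.13, adjusted p = 1.77e-09), and the regulatory subunit *Ppp3r1* at 199, 161 and 119.9 against 935, 978 and 825 (-2.53 ± 0.17, adjusted p = 1.59e-08). All 3 kept the libraries of both cells apart, and only *Ppp3r1* had been called at rest (-2.37). The calcium pumps *Atp2b4* (1.90), *Atp2a3* (1.44) and *Atp2b1* (1.18), which clear calcium from the cytosol, were higher, the potassium channel *Kcna3* was lower (-1.02) and *Rcan3* was higher (1.42). *Kcnn4* was called lower but its libraries overlapped (1588, 614 and 409 against 2084, 3104 and 1230.4, -1.44 ± 0.53, adjusted p = 0.0283). Its call was lost without the first or the second Tconv library or the second or the last tTreg library (-1.41, -1.12, -1.31 and -1.01). DESeq2 on the recovered reads did not call it either (-1.34). *Ryr2*, a calcium release channel, was at 40.4, 38.8 and 21.8 in activated tTregs and at 0 in all activated Tconv libraries, at least 13.6-fold higher.

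Of 43 proximal TCR signaling genes 13 were lower, 7 higher and 23 not called, with a median of -0.12. The share called was close to the 48.2% of all genes. The adaptor *Lat* was at 2829, 2766 and 2654 against 6531, 7066 and 6768 normalized counts (-1.30 ± 0.07, adjusted p = 1.08e-09), *Cd3d* was lower by 0.85 and *Themis* by 1.04 log2 units, and the kinase gene *Lck* was not called (7664, 8120.1 and 8597 against 8789.6, 8683 and 9525, -0.15, adjusted p = 0.208). *Cd5*, a brake on TCR signals, was higher (1.16). Of 12 anergy-linked genes 6 were higher and 4 lower (median 0.48, or 0.24 with 4 higher and 4 lower after removal of the length and GC trend): the ubiquitin ligase *Cblb* was lower (-0.97) and *Cbl* higher (1.18, or 0.45 and not called with the length and GC trend removed), and of the adaptors of the Itch ligase *Ndfip2* was higher (1.90) while *Ndfip1* was lower, with 1444, 335 and 213 against 5361, 5600.1 and 5304 normalized counts and the first tTreg library well above the other tTreg libraries (-3.53 ± 0.66, adjusted p = 3.16e-04).

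DNA replication and S phase genes held the largest share of lower genes among the lists. Of 43 genes, 37 were lower in activated tTregs, 1 was higher and 5 were not called, and for 39 all 3 tTreg libraries lay below all 3 Tconv libraries. The median was -1.22, against -0.02 between resting cells, and 32 genes were lower both here and in the interaction. *Mcm3*, a subunit of the replicative helicase, stood at 1554, 1654 and 1989 against 6582, 6079 and 6497 normalized counts (-1.89 ± 0.11, adjusted p = 2.52e-09). *Ccne1*, the cyclin that opens S phase, was at 22.9, 27.4 and 30.9 against 274, 303 and 229 (-3.26 ± 0.29, adjusted p = 2.04e-07), and *E2f1*, which drives the S phase genes, at 17.5, 15.1 and 16.3 against 113, 89.7 and 106 (-2.58 ± 0.30, adjusted p = 4.18e-06). *Pcna* (-1.87), *Cdc6* (-2.24), *Gins1* (-2.81) and *Orc1* (-2.59) were lower too. The list was not silent in tTregs: 37 of the 43 genes rose on activation there and 42 in Tconvs, by medians of 1.06 and 2.19. *Mcm6* overlapped (8279, 5393 and 8270.4 against 7214, 7286 and 7206, -0.01), and the 1 higher gene, *E2f2* (0.53), lost its call in 7 of 21 alternatives.

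Mitosis genes did not follow. Of 34, 9 were higher, 9 lower and 16 not called, with a median of 0.05 that changed sign under 6 alternatives, which included TMM scaling (-0.04), quantile normalization (-0.20) and the fits without the first Tconv or the last tTreg library (-0.03 in both), and 30 rose in tTregs and 29 in Tconvs on activation. *Mki67*, the proliferation antigen Ki-67, was at 229, 267 and 278 against 93.4, 81.1 and 106 normalized counts (1.46 ± 0.17, adjusted p = 3.92e-06), so the activated tTreg libraries were all above. *Ccnb2* (1.84), *Cenpa* (1.62) and *Ube2c* (1.25; 1.18 and 1.14 and not called without the second Tconv or the first tTreg library) were higher as well, whereas *Ccna2* (-2.41), whose product acts from S phase on, and *Cdk1* (-1.36) were lower. In the G1 machinery, *Cdkn1b*, which encodes the cyclin-dependent kinase inhibitor p27, was at 2727, 2127 and 2352 against 668, 633 and 646 (1.88 ± 0.09, adjusted p = 3.60e-10). It fell by 2.06 log2 units in Tconvs and was not called on activation in tTregs. *Ccnd2* (-0.96), *Cdk4* (-1.23), *Cdk6* (-0.65) and *Cdc25a* (-1.55) were lower in activated tTregs and *Rbl2* (1.37) and *Cdkn2c* (1.34) higher. *Ccnd2* and *Cdk6* had been higher in tTregs at rest (1.31 and 3.42).

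**Figure D3:**
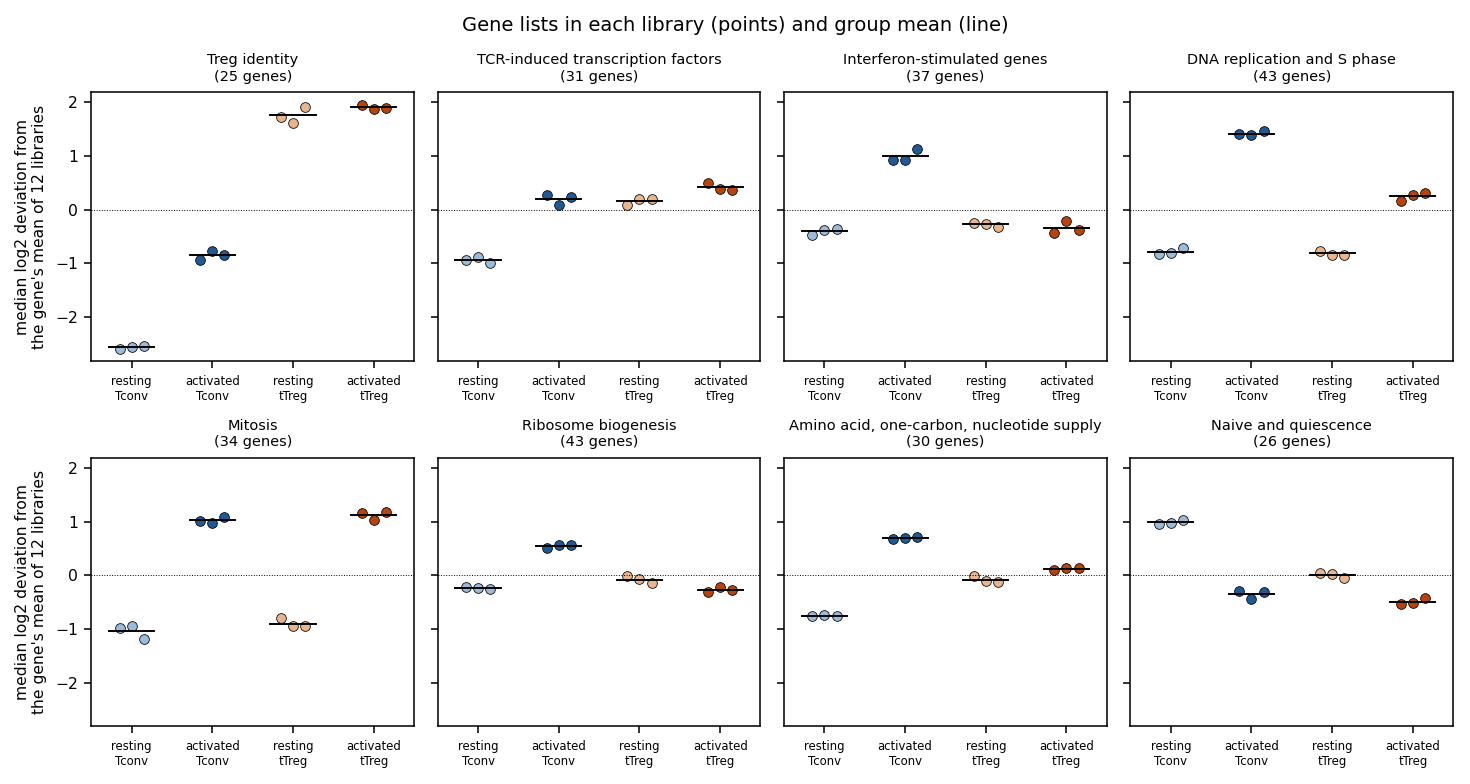
Median over the genes of each of 8 lists of the log2 deviation from the gene's mean over 12 libraries, in each library (points) with a line at the group mean. Activated Tconvs stand above activated tTregs for interferon-stimulated, DNA replication, ribosome biogenesis and amino acid supply genes, mitosis genes are level in both, and Treg identity genes keep tTregs above.

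By library, the median deviation of DNA replication genes from their mean over the 12 libraries was 0.17, 0.28 and 0.32 log2 units in activated tTregs and 1.41, 1.38 and 1.46 in activated Tconvs. Resting libraries lay between -0.85 and -0.70 in both cell types. Mitosis genes were at 1.16, 1.02 and 1.17 in activated tTregs and 1.01, 0.98 and 1.07 in activated Tconvs. The activated cells were apart in every library for the first list and intermingled for the second.

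Ribosome biogenesis was the other growth program with one direction. Of 43 genes 33 were lower in activated tTregs, none was higher and 10 were not called, with a median of -0.79 and 38 genes whose tTreg libraries were all below. *Npm1*, the nucleolar chaperone nucleophosmin, was at 8427, 10757 and 7638 against 26274, 28681 and 27730.4 normalized counts (-1.64 ± 0.11, adjusted p = 1.07e-08), *Dkc1*, a subunit of RNA-modifying particles, at 708, 966 and 874 against 2968, 2807 and 3089 (-1.81 ± 0.13, adjusted p = 3.50e-08), and *Ncl*, nucleolin, differed less (-0.60). Only 1 gene of the list rose on activation in tTregs and 29 did in Tconvs.

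Supply of amino acids, one-carbon units and nucleotides was lower in 17 of 30 genes and higher in 4 (median -0.67). Between resting cells 14 had been higher in tTregs (median 0.54), and 6 genes changed sides. Among these, *Psat1*, an enzyme of serine synthesis, was at 1378, 1956 and 1604 against 3179, 3226 and 3304 normalized counts after activation (-0.99 ± 0.13, adjusted p = 9.65e-06) and higher in tTregs before (2.44), and *Shmt1* (-1.88 and 0.93) and the transporter *Slc7a5* (-1.06 and 1.23) did likewise. *Srm*, spermidine synthase, was lower (-2.50), and *Odc1*, the step before it, was higher (0.64).

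Energy metabolism moved in parts. Of 24 glycolysis genes 9 were lower and 6 higher (median -0.21, which turned to 0.11 under quantile normalization). *Gapdh* was at 6407, 9314 and 7517 against 23384, 23983 and 24755 normalized counts (-1.65 ± 0.11, adjusted p = 1.16e-08) and *Pdk1*, which restrains pyruvate oxidation, was lower (-2.38), while the lactate exporter *Slc16a3* was at 790.5, 479 and 737 against 53.9, 75.9 and 63.7 (3.33 ± 0.20, adjusted p = 3.95e-09) and the glucose transporter *Slc2a3* was higher (2.20). Of 38 oxidative phosphorylation genes of the nucleus 19 were lower and none higher (median -0.58, or -0.32 with 11 lower after removal of the length and GC trend), *Cycs*, cytochrome c, among them (-1.65). Cholesterol and fatty acid synthesis genes were lower in 12 of 30 and higher in 3 (median -0.38), with *Pmvk* (-1.77) and *Fdps* (-1.28) lower and *Elovl6* (2.09) higher. Chaperone and unfolded protein response genes were lower in 11 of 29 and higher in 6, with the mitochondrial chaperone *Hspd1* (-1.44) lower and the stress gene *Trib3* (1.55) higher.

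Genes of the mitochondrial genome and of cytosolic ribosomal proteins, families picked after their values were seen, were lower in 11 of 13 and 47 of 86 cases, with medians of -1.12 and -0.55. With the length and GC trend removed 5 and 26 were lower (medians -0.48 and -0.31), and under quantile normalization 9 and 10 (medians -0.82 and -0.15). The mitochondrial median was -1.08 between resting cells, and it goes with the lower share of mitochondrial reads given above. *mt-Co1* was at 31239, 48899.6 and 34535 against 91251, 85582 and 98528 normalized counts (-1.29 ± 0.17, adjusted p = 1.30e-05). By the difference of means, *Actb* (-0.94), *Eef1a1* (-0.55), *mt-Atp6* (-1.96), *mt-Nd1* (-2.03), *Rps4x* (-1.31), *B2m* (-1.48) and *Rpl3* (-0.84) stood with *mt-Co1* and *Gbp2* among the 10 largest deficits of activated tTregs, and *Eef1a1* was no longer called without the first activated tTreg library (-0.46), with the trend removed (-0.24) or under quantile normalization, where it did not differ.

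The largest fold differences against tTregs beside the Th1 and interferon genes were in genes with low values in tTregs. *Pdlim4*, an actin-associated protein whose promoter is shown above, was at 8.08, 3.78 and 1.82 against 701, 807 and 789 normalized counts (-7.27 ± 0.41, adjusted p = 2.00e-09), against -8.68 at rest. *Ccdc141* was different in that it was not called at rest (-0.18): it was at 1.35, 3.78 and 1.82 against 376, 305 and 400.5 after activation (-6.83 ± 0.43, adjusted p = 6.93e-09). *Igfbp4*, which binds insulin-like growth factors, was at 171, 88.9 and 114 against 6412, 6949 and 6002 (-5.73 ± 0.26, adjusted p = 2.11e-10) and rose in both cells. *C1qbp*, a mitochondrial matrix protein, was at 63.3, 42.6 and 34.5 against 1721, 2072 and 1794 (-5.33 ± 0.18, adjusted p = 9.34e-12). *Crtap* (-5.39), *Zfp771* (-5.38), *Dapl1* (-5.13), *0610012G03Rik* (-4.94) and the phosphodiesterase *Pde3b* (-4.70) were lower by similar amounts.

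The difference in naive and quiescence genes narrowed with activation, by an amount that depended on the setting. At rest 18 of 26 were lower in tTregs (median -1.07), and after activation 10 were lower, 7 higher and 9 not called (median 0.14). With the length and GC trend removed, 13 were lower and 8 higher after activation (median -0.35). *Tcf7*, the TCF-1 factor of naive and memory cells, stayed lower at 1050.4, 1170.3 and 1109.9 against 3363, 3382 and 3565 normalized counts (-1.63 ± 0.07, adjusted p = 1.23e-10; -3.73 at rest), as did *Satb1* (-1.94), *Lef1* (-1.17) and the lymph node homing receptor *Ccr7* (-1.63). *Il7r*, the IL-7 receptor, was at 746, 822 and 892 against 658, 604 and 686 and was not called, its difference being under the fold threshold (0.33 ± 0.12, adjusted p = 0.0264; 0.52 and called with the trend removed), after -3.75 at rest and an interaction of 4.08 ± 0.17 (adjusted p = 2.42e-10). *Tob1* (1.70; -2.0 at rest), *Sesn1* (1.73; -0.86) and *S1pr1* (1.18; -1.08), which brake proliferation, respond to stress and guide exit from lymphoid tissue respectively, changed from lower to higher.

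Among chemokine receptors and integrins 12 of 23 were higher and 6 lower (median 0.56). The gut-homing receptor *Gpr15* was at 145, 202 and 193 against 5.39, 9.49 and 7.08 normalized counts (4.46 ± 0.27, adjusted p = 5.19e-09), *Cxcr5* was higher (1.93), and *Cxcr6* (-2.70) and *Sema4a* (-3.30), a ligand of neuropilin-1, were lower. In the PI3K-AKT list 12 of 25 were higher and 4 lower (median 0.54), but 5 and 5 with the length and GC trend removed (median 0.04). *Sgk1*, a kinase downstream of PI3K and mTORC2, had the largest positive interaction of the genes named by size. It was at 770.3, 482 and 732 in activated tTregs and 33.2, 31.9 and 39.6 in activated Tconvs (4.18 ± 0.17, adjusted p = 4.69e-11), it had been lower in tTregs at rest (-0.79), and the interaction was 4.98 ± 0.24 (adjusted p = 1.02e-09). *Phlpp1*, a phosphatase of AKT, was at 885, 836 and 1104 against 59.3, 68.1 and 90.6 (3.69 ± 0.15, adjusted p = 4.85e-11).

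Remaining lists showed smaller shifts. Of 32 cytokine receptor and SOCS genes 9 were higher and 11 lower (median 0.28, or -0.08 with 7 higher and 12 lower after removal of the length and GC trend), with the IL-15 receptor chain *Il15ra* lower (-2.66) and *Il9r* higher (2.14). Feedback genes of MAPK and NF-κB were mostly not called, 15 of 23, with 6 higher and 2 lower (median 0.33), the phosphatases *Dusp4* (3.60) and *Dusp10* (-1.70) at the ends. Of 20 BCL2 family genes 3 were higher and 4 lower (median -0.04, or 0.03 without the second activated tTreg library), with the death genes *Pmaip1* (2.44) and *Bbc3* (1.95) higher and the survival gene *Bcl2l1* lower (-0.89; 1.50 at rest).

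**Figure D4:**
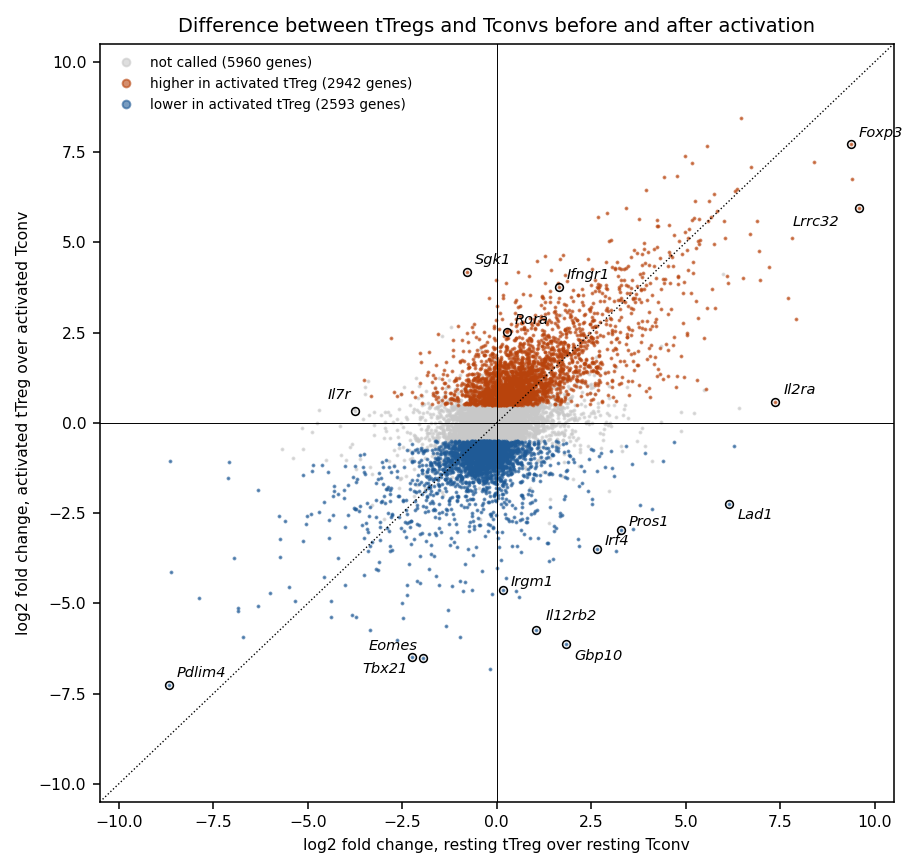
Log2 fold change of tTregs over Tconvs between activated cells (vertical axis) against that between resting cells (horizontal axis) for 11495 genes, coloured by the call after activation, with 16 genes circled and named and equality drawn as a dotted line. *Foxp3* and *Pdlim4* lie near the line, *Il2ra* lies far to the right of it, and *Lad1*, *Pros1*, *Irf4* and *Il12rb2* are higher in tTregs at rest and lower after activation.

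Differences after activation were in part those seen at rest. Of the 2942 genes higher in activated tTregs, 1420 (48.3%) had been higher at rest, 174 (5.91%) lower and 1348 not called, and of the 2593 lower genes 988 (38.1%) had been lower, 208 (8.02%) higher and 1397 not called. The median absolute log2 fold change was 0.55 after activation and 0.44 before. Of the genes higher in activated tTregs, 46.6% had fallen in Tconvs on activation, against 25.7% of all genes. Of those lower, 52.3% had risen in Tconvs, against 24.5% of all genes. Activation of tTregs gave no call for 77.3% of the higher and 72.5% of the lower genes. That was near the general share: 80.9% of the genes not called between activated cells had no such call either, and 21.9% of all genes had one. These comparisons share the activated libraries, so each is given as its own count.

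Some genes changed sides. *Lad1*, which encodes an anchoring filament protein, was at 257, 202 and 203 normalized counts in activated tTregs and at 989, 1086 and 1044 in activated Tconvs (-2.24 ± 0.34, adjusted p = 4.59e-05), against 6.15 at rest. *Pros1*, the anticoagulant protein S that also engages receptors of the TAM family, was at 762, 852 and 799 against 6245, 6238 and 6257 (-2.96 ± 0.08, adjusted p = 9.05e-13), against 3.29 at rest. Both were well apart in each state and in opposite order. *Gm4951* (-2.37; 4.10 at rest), *Gbp2* and *Irf4*, both described above, completed the 5 largest by the smaller of both fold changes. *D630039A03Rik* (-0.64; 6.27 at rest) kept its call after activation in 9 of 21 alternatives only. In the other direction, *Gpr183*, a receptor for oxysterols, was at 639.7, 554 and 708 against 410.3, 322 and 396 (0.75 ± 0.13, adjusted p = 1.28e-04; -3.34 at rest), *H2-Ob*, a modulator of class II MHC loading, went from -1.56 to 2.46, and *Trpm1* was higher only after activation (3.96; -0.02 at rest).

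Transcript length moved with the difference. Genes were split by length into 5 bins of equal size, and the median log2 fold change went from -0.28 in the bin of the shortest transcripts (median length 1412 bases) to 0.40 in that of the longest (6687 bases). The share called higher went from 15.0 to 41.2% and the share called lower from 34.1 to 11%. The same slope with length was present between resting cells, from -0.21 to 0.23. Over 5 bins by GC content, the median went from -0.12 in the lowest to 0.205 in the highest. Between resting cells those bins stood at -0.02 and 0.03. The highest GC bin was also uneven among the activated tTreg libraries, with median log2 deviations of 0.24, -0.03 and 0.12. A fit with the trend in length and GC content removed, chosen after the data were seen, called 2448 genes higher and 2540 lower, of which 2186 and 2029 were shared with the calls above. All 25 Treg identity genes but *Il2rb* (0.73, then 0.43) kept their call, and the medians of DNA replication (-1.34), interferon-stimulated (-1.0) and ribosome biogenesis genes (-0.91) stayed negative. Whether the trend lies in the cells or in the libraries was not tested.

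**Figure D5:**
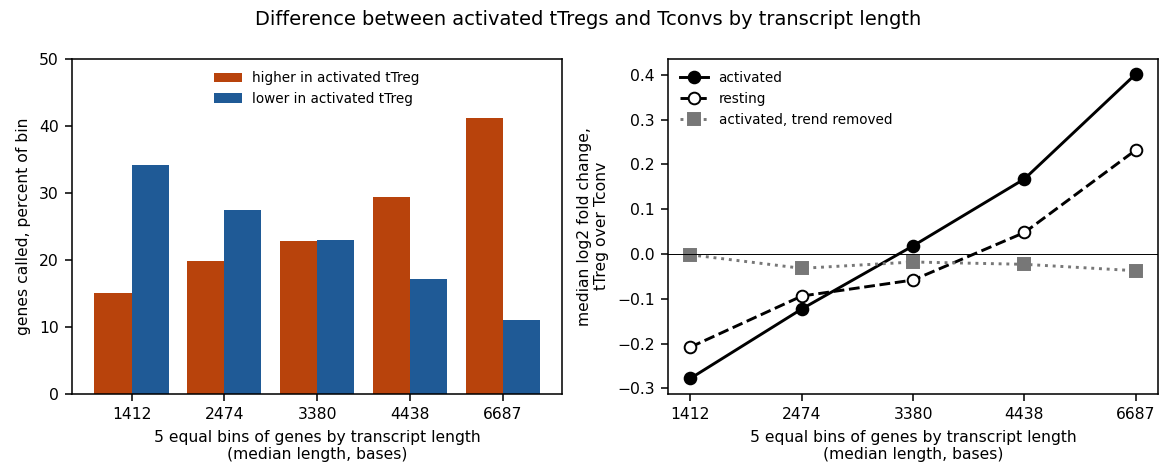
Genes in 5 equal bins by transcript length, labelled with the median length of each. Left, percent of each bin called higher or lower in activated tTregs; right, median log2 fold change between activated cells, between resting cells and between activated cells with the trend removed, which rises with length in the first 2 and is flat in the third.

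Markers of other cells were checked because they bear on every list. Of 7 T cell marker genes tested, *Cd3e*, *Cd4* and *Lck* were not called, *Cd3d* (-0.85), *Cd3g* (-0.70) and *Cd247* (-0.72) were lower and *Cd5* was higher (1.16). With the length and GC trend removed, *Cd3g* was no longer called (-0.29) and *Cd3e* was called higher (0.55). The summed level of the list was 30672 to 33468 in activated tTregs and 36319 to 38892 in activated Tconvs. Of 13 B cell genes 6 were tested: *Cd79b* was higher in activated tTregs (92.9, 122 and 85.4 against 11.7, 17.2 and 11.3 normalized counts, 2.82 ± 0.24, adjusted p = 1.73e-07) and *Cd74* lower (39.1, 77.6 and 65.4 against 337, 350.2 and 379, -2.58 ± 0.25, adjusted p = 5.17e-07), *H2-Aa* was at 0 against 19.8, 22.4 and 20.5, at least 5.09-fold lower, and *Ms4a1*, *Pax5* and *Blk* were at 0 in all activated libraries. The summed level of the B cell list was 148 to 226 in activated tTregs and 398 to 452 in activated Tconvs.

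Of 10 CD8 T and NK cell genes 7 were tested, 4 lower and none higher. *Klrk1* was at 0 in all activated tTreg libraries and at 28.7, 37.1 and 32.5 in activated Tconvs, at least 7.98-fold lower, and *Klrd1* at 0 and 14.4, 21.6 and 14.9, at least 4.12-fold lower, after 389, 399.6 and 400.2 in resting Tconvs. The defining *Cd8b1* was at 113, 153 and 96.3 against 107, 119 and 109.7 and not called, and *Ncr1* was at 0 in all activated tTreg libraries and at 0.898, 0 and 1.42 in activated Tconvs. The summed level of this list was 145 to 205 and 492 to 549, *Eomes* included. Of 17 myeloid genes 4 reached the minimum for a test, and 1 was higher in activated tTregs, 2 were lower and 1 was not called. The summed level of the myeloid list was higher in activated tTregs, 1358 to 1854 against 849 to 897. The median log2 fold change of the 4 tested genes was -0.58, and ran from -1.15 to 1.01 over the alternatives, so the sum shows no shift of the list. The listed genes *Lyz2*, *S100a8* and *S100a9* were at 0 in all 6 activated libraries. Of 10 erythroid and platelet genes 2 were tested, 1 higher and 1 not called, with a mean summed level of 26.2 against 11.2. The part of such cells in the Th1 and cytokine results was not tested.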

How the data were processed

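RNA-seq of sorted cells was analysed in 15 libraries, 3 for each group (Tconvs and tTregs in both states, and iTregs at rest). By their methods, the authors made modified SMART-seq2 libraries of polyadenylated RNA without strand information, trimmed reads with Cutadapt 1.18, aligned them to mm10 with STAR 2.5.3, counted them with RSEM 1.3.0 on GENCODE annotation and scaled them with DESeq2 1.26. The values as deposited are a signal, gene reads divided by a size factor for each library, printed here as normalized counts. Whole reads could be recovered for 100% of values in every library (within 0.01 read), and read totals of the activated libraries ran from 5256800 to 15685234. Floors of 3 reads cover counting error only, whereas the ± values are standard errors from the spread between libraries.

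Genes that reached 10 normalized counts in 3 or more of these 15 libraries were tested on log2(value + 1) with limma 3.58.1 in R 4.3.3, with one fit over the 5 groups and an intensity trend. Fold changes on this scale understate those of low genes. Adjusted p-values are Benjamini-Hochberg over all 11495 genes tested, and the thresholds of 0.05 and 0.5 follow those the authors used with DESeq2. Every p printed for a gene comes from this limma fit, as value ± SE with 3 libraries per group. Alternatives covered scaling, pseudocount, filter, libraries, variance, depth, and edgeR 4.0.16 and DESeq2 1.42.0 on the recovered reads. On simulated reads with the same spread in all groups and 200 changed genes, the fit called 90 to 100% of the changed genes of each set size. It called 0.08% of the others. The real groups differed in spread and in the share of genes called, so this checks only that the fit runs correctly.

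Named genes are the members of 30 gene lists and the genes with the largest fold changes (15 in each direction, not overlapping between groups, mean of at least 100 in the higher group), the largest differences of means (10 in each direction), the largest interactions (5 in each direction) and the largest opposite differences at rest (5). The members, lists and tests were chosen with earlier results of these data known, and the removal of the length and GC trend, the interferon motifs and the gene families were added after these data were seen. Gene positions are from GENCODE on GRCm38 (matched by name for 99.4% of genes) and promoters from RefSeq on GRCm38.p6. Some list members are counted but not reported by name here.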

Additional observations from a re-analysis of the deposited data

Results flagged for a closer look

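The difference between tTregs and Tconvs changed with activation for 3991 genes by the interaction term of the limma fit, and the genes with the largest changes, or with called differences in opposite directions, are given here with the interaction on the log2 scale and, in brackets, the differences between activated and between resting cells. Negative values mean that the difference moved against tTregs with activation.

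The interaction of *Lad1* was -8.39 (-2.24 and 6.15). *Gbp10* gave -7.97 (-6.13 and 1.84). For *D630039A03Rik* it was -6.91 (-0.64 and 6.27). That of *Il2ra* came to -6.80 (0.57 and 7.37). The interaction of *Il12rb2* was -6.77 (-5.73 and 1.04). *Sgk1* gave 4.98 (4.18 and -0.79). For *Gpr183* it was 4.09 (0.75 and -3.34). That of *Il7r* came to 4.08 (0.33 and -3.75). The interaction of *H2-Ob* was 4.01 (2.46 and -1.56). *Trpm1* gave 3.98 (3.96 and -0.02). For *Pros1* it was -6.25 (-2.96 and 3.29). That of *Irf4* came to -6.13 (-3.49 and 2.64). The interaction of *Gm4951* was -6.47 (-2.37 and 4.10). *Gbp2* gave -5.37 (-3.23 and 2.14).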

How the results depend on the processing

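The counts of genes called kept within 1.5 times of those reported under every alternative except a stricter threshold: with an absolute log2 fold change above 1, 2794 genes differed between activated cells (1645 higher and 1149 lower in tTregs), 2268 between resting cells and 2046 in the interaction, by construction of the threshold. With one activated library left out in turn, between 5172 and 5663 genes differed, and edgeR and DESeq2 on the recovered reads called 5531 and 5409. A fit on the 6 activated libraries alone gave no resting or interaction values. Activated Tconv and tTreg libraries of the same replicate number gave correlations of 0.005, -0.10 and 0.13 in their deviations from the group mean. Those of different numbers ran from -0.19 to 0.18. With 3 libraries per group, these values cannot tell whether the numbers pair the libraries. With the replicate number as a block 5497 genes differed, 2923 higher and 2574 lower, with 4399 at rest and 3913 in the interaction.

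Of 224 named genes with a test, 195 kept direction and call throughout, and 12 lost, gained or turned in a fit without 1 library. Beside those given in the text, *Actb* (-0.20), *Rpl3* (-0.44) and *Ncl* (-0.34) were not called under quantile normalization. Signs turned for uncalled genes and for *Eef1a1*, which was at 0 under quantile normalization. That setting gave 0.0787 for *Lck* and 0.159 for *Mcm6*, which ran from -0.116 to 0.194 without single libraries. *Myc* was at -0.0369 with size factors of the activated libraries, -0.0846 with TMM scaling, -0.0375 with thinned reads and -0.0034 with DESeq2, and ran from -0.108 to 0.223 without single libraries. *Cd8b1* was at -0.00526 with TMM scaling and ran from -0.0976 to 0.235 without single libraries. *Nfatc1* was at -0.244 and *Tnf* at 0.0932 with the length and GC trend removed, and *Nfatc1* at -0.0049 with thinned reads. The cause of these changes was not tested. The median of naive genes changed sign without the first activated tTreg library (-0.01), and other medians that turned are given in the text. Activated tTreg libraries were the shallowest and most spread, which limits low genes and small differences.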
